A study of Mus musculus with 6 samples.

Results

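Twist1, Twist2, Tcf21, Hand2, Prrx1, Prrx2, Osr1, Osr2, Gata4 and Gata6 encode transcription factors of mesenchyme, and the binding of COUP-TFII at these 10 genes was examined in the mesonephros, the tissue beside the fetal gonad that carries the Wolffian and Müllerian ducts. The genes were chosen by name, as basic helix-loop-helix (bHLH), Prrx homeobox, odd-skipped and GATA factors, out of 21887 protein-coding mouse genes. Earlier results of these data were known when they were chosen. A ChIP-seq peak was given to the protein-coding gene whose body lay nearest to the peak's centre, within 100 kb. Of all 13538 places with a peak, 12 were given to the 10 genes. Mesonephroi of CD-1 mice at E14.5 were pooled for chromatin, which was precipitated with a rabbit antibody to COUP-TFII (the product of Nr2f2) in 2 samples of XX and 2 of XY embryos, and 2 samples of pooled input from both sexes were also made. No mutant, transgene or treatment is named in the labels. Their extraction text names RUNX1 and fetal ovaries, whereas the titles, tissue, antibody and design name COUP-TFII and mesonephroi, and the latter were followed.

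The authors deposited 1 peak list per sex over both replicates, with 11175 XX peaks and 9846 XY peaks. All peaks have a width of 300 bp and carry no height, score or p-value. There is therefore no spread between replicates and no test of the sexes below, and the read depth behind each list is unknown. A peak was called shared when an XX and an XY peak had at least 1 bp in common. The XY list held 2 peaks on the Y chromosome and the XX list held 0. The tissue could not be checked against marker genes, because the lists hold no RNA levels.

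COUP-TFII is a nuclear receptor that is abundant in mesenchymal cells, where it binds DNA and recruits coregulators of transcription. The bHLH factors Twist1, Twist2, Tcf21 and Hand2 bind E-boxes as dimers, often with the widely expressed E proteins. Prrx1 and Prrx2 are paired-type homeodomain proteins of limb and craniofacial mesenchyme, Osr1 and Osr2 are zinc finger proteins of intermediate mesoderm and its derivatives, and Gata4 and Gata6 are zinc finger proteins that act in heart, gonad and gut mesenchyme. Apart from Tcf21 and Hand2, the genes form 4 pairs of paralogs.

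Shared peaks lay close to the starts of Twist1, Twist2, Tcf21 and Prrx1, so the 250 bases before those starts are shown. They were taken from RefSeq promoter windows of the GRCm38.p6 assembly (the assembly of mm10) and read 5′ to 3′ along the gene. In the Twist2 sequence, capitals mark the 38 bases that lay under the peaks of both lists. In the others, capitals mark a GATA site (AGATAA or TGATAA, either strand), and the Twist1 sequence has none. The positions are chr12:33957421-33957670 for Twist1 and chr1:91801211-91801460 for Twist2, on the plus strand. They are chr10:22820144-22820393 for Tcf21 and chr1:163313651-163313900 for Prrx1, on the minus strand.
Twist2: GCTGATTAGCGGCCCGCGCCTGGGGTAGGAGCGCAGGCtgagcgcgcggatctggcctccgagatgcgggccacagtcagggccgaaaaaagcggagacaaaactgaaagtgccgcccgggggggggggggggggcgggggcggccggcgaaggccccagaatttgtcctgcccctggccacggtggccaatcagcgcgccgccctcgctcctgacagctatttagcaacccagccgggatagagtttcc
Twist1: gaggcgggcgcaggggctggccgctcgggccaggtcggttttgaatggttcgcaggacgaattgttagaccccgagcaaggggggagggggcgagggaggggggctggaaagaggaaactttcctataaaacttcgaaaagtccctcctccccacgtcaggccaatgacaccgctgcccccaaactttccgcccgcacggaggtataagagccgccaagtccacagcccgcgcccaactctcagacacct
Tcf21: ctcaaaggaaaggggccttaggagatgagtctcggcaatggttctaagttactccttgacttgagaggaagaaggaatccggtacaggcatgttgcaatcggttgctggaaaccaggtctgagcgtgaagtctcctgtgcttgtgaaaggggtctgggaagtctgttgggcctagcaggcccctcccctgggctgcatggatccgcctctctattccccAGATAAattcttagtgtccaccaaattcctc
Prrx1: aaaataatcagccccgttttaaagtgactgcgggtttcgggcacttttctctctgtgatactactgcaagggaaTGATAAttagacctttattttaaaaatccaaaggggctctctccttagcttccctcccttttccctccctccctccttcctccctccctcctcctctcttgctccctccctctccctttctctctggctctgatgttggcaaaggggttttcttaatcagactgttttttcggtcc

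The Twist2 stretch is rich in G and C, at 68.8% of bases. The values were 62.4% for Twist1, 52.4% for Tcf21 and 47.6% for Prrx1, against a median of 55.6% over 21263 windows of protein-coding genes. Promoter windows of 300 bases, from 250 before to 50 after the start, were matched for 6 of the 10 genes, the other 2 being Hand2 and Prrx2. The nuclear receptor core AGGTCA was searched on both strands and occurred in 0 of these 6 windows, against 14.7% of all windows. A direct repeat of AGGTCA with 0, 1 or 2 bases between the copies occurred in 0.0564% of all windows and likewise in 0 of the 6. The E-box CANNTG, whose pattern reads the same on both strands, occurred in the Hand2 window only among the 6, with 2 matches, against 69.0% of all windows. The GATA site occurred in the windows of Prrx1 and Tcf21 with 1 match each and of Hand2 with 2, against 15.9% of all windows. No match overlapped another. These windows touch only 1 of the members' peaks, the Twist2 peak before the start, so the letters under the other peaks were not searched.

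Of the 10 genes, 9 had a peak in at least 1 list, and 7 had a shared peak. These were Twist1, Twist2, Tcf21, Hand2, Prrx1, Osr2 and Gata4. Osr1 had a peak in the XX list only, Gata6 in the XY list only, and Prrx2 in neither. Over all protein-coding genes, 42.2% had a peak in either list and 28.2% a shared peak. The XX list had a peak at 8 of the 10 genes (36.9% of all genes), and the XY list at 8 (35.1% of all genes). Because the 10 genes were chosen with earlier results of these data known, the differences from all genes are a description.

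**Figure D1:**
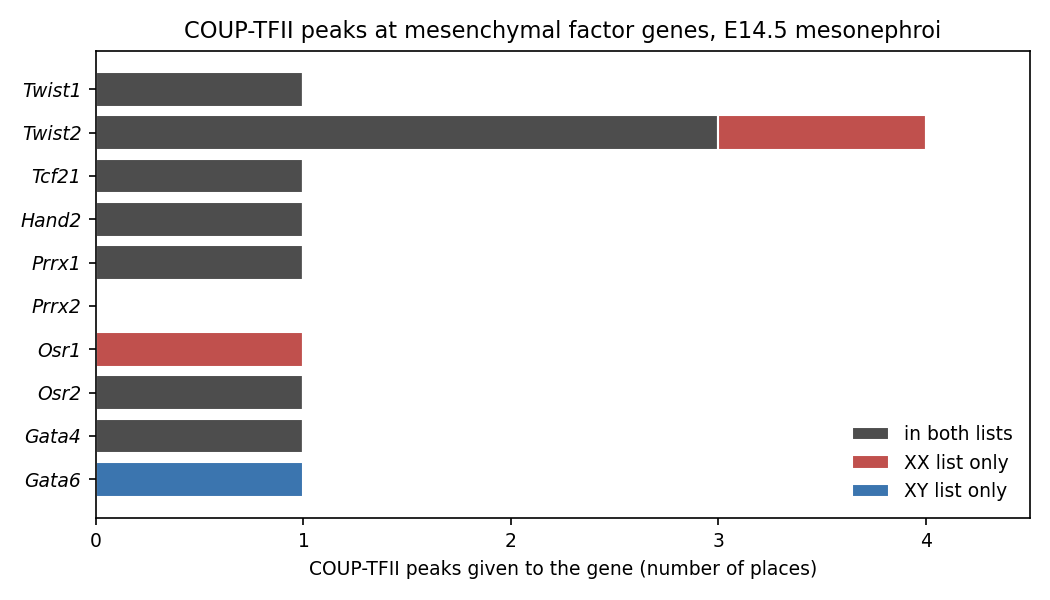
Number of places with a COUP-TFII peak given to each of the 10 genes (horizontal axis), split into peaks in both lists, in the XX list only and in the XY list only. Twist2 has 4 places, 8 other genes have 1 each, and Prrx2 has 0.

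The genes stand in roomier surroundings than most. The stretch of genome nearest to each, within 100 kb, ran from 48.5 kb at Prrx2 to 233 kb at Gata6, with a median of 158 kb, against a median of 45.0 kb over all protein-coding genes. A longer stretch can collect more peaks. Among the 8960 protein-coding genes with a stretch between 48.5 and 233 kb, 49.0% had a peak in either list and 33.0% had a shared peak. Genes with no activity in the mesonephros count in these shares too, because the files give no expression. The part that either plays in the count of 7 was not tested.

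Among the bHLH genes, Twist2, a regulator of dermal and other connective tissue mesenchyme, had the most peaks. Twist2 (gene 13345, chromosome 1, 91801461 to 91848034, plus strand) had 4 XX peaks and 3 XY peaks, of which 3 were shared. The first shared peak, at 91800949 to 91801248 in the XX list and 91800971 to 91801270 in the XY list, was centred 362 bp (XX) and 340 bp (XY) before the start. The second, at 91801898 to 91802197 (XX) and 91801747 to 91802046 (XY), was centred 587 bp and 436 bp after it. These 2 peaks flanked the start with XX centres 949 bp apart. The third shared peak, at 91844758 to 91845057 (XX), lay inside the gene, 3.13 kb from its far end. The fourth place, at 91770561 to 91770860, lay 30.8 kb before the gene and was in the XX list only.

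A count of 3 or more shared peaks was found at 1 of the 10 genes, Twist2, and at 0.553% of all protein-coding genes. The limit of 3 equals the count at Twist2, the highest of the 10 genes, so this is a description. Another 28 genes had the same counts as Twist2, with 3 shared, 1 XX-only and 0 XY-only peaks. Trim44 and Mbd2 were the nearest of them to Twist2 in the stretch of genome they take, with 182 and 178 kb against 187 kb. That likeness is of counts over 2 lists and says nothing of their positions. The second Twist2 peak was the least alike between the lists: its XX and XY centres lay 151 bp apart, with 149 bp in common. Counted as shared only with 50% of each peak in common, or with centres within 100 bp, Twist2 had 2 shared, 2 XX-only and 1 XY-only peaks.

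Twist1, which acts in neural crest and limb mesenchyme and in epithelial to mesenchymal transition, had 1 shared peak. The gene (22160, chromosome 12, 33957671 to 33959831, plus strand) is 2.16 kb long. Its peak, at 33958272 to 33958571 in the XX list and 33958298 to 33958597 in the XY list, was centred 751 bp and 777 bp after the start. Within 500 kb of Twist1 there was 1 further place with a peak, in the XY list only. It lay inside Ferd3l, a neighbouring bHLH gene, at 33928865 to 33929164. The paralogs have related neighbours, Hdac9 beyond Twist1 and Hdac4 beyond Twist2, both class II histone deacetylase genes. Hdac9, a gene of 870 kb, had 1 XX-only peak and 0 XY peaks, and Hdac4, of 267 kb, had 1 shared and 1 XX-only peak.

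Tcf21, a bHLH factor of kidney, lung and gonadal mesenchyme, also had 1 shared peak within its short gene body (21412, chromosome 10, 22817263 to 22820143, minus strand). The XX peak at 22819433 to 22819732 was centred 560 bp after the start, and the XY peak at 22819406 to 22819705 was centred 587 bp after it. The place also lies within Gm10824, a long noncoding RNA gene that spans Tcf21. A second shared peak within 100 kb of Tcf21 was inside its neighbour Tbpl1, 85.4 kb away.

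Hand2, a bHLH factor of heart, limb and smooth muscle progenitors, had its 1 shared peak outside the gene. Hand2 lies on chromosome 8 (gene 15111, 57320983 to 57324517, plus strand). The XX peak at 57341023 to 57341322 and the XY peak at 57341026 to 57341325 lay 16.7 kb past the far end of the gene. Their centres were 3 bp apart, the closest match among the shared peaks of the 10 genes. The place is inside Hdnr, a long noncoding RNA gene next to Hand2. No peak of either list lay inside Hand2 or before its start within 100 kb.

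The paralogs Prrx1 and Prrx2 differed in whether they had a peak. Prrx1, a homeobox factor of limb bud and craniofacial mesenchyme (gene 18933, chromosome 1, 163245119 to 163315145, minus strand), had 1 shared peak inside the gene, at 163312305 to 163312604 (XX) and 163312320 to 163312619 (XY). It was centred 1195 bp (XX) and 1180 bp (XY) after the RefSeq start in the promoter table, and 2.69 kb (XX) from the outer end of the annotated gene. Within 100 kb of Prrx1, 1 other shared peak lay nearer to Mroh9 and 1 XX-only peak nearer to Gorab.

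Prrx2, active in much the same mesenchyme (gene 20204, chromosome 2, 30845064 to 30881251), had 0 peaks in both lists. Its neighbours Asb6 and Ptges stand 16.8 and 8.22 kb away, and it has the shortest stretch of the 10 genes. Within 100 kb of Prrx2 there were 3 shared peaks and 1 XX-only peak, all nearer to other genes. The shared peaks were at Ntmt1, 1700001O22Rik and Tor1a, between 36.9 and 86.4 kb from Prrx2, and the XX-only peak was also given to 1700001O22Rik. Asb6 and Ptges had 0 peaks.

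**Figure D2:**
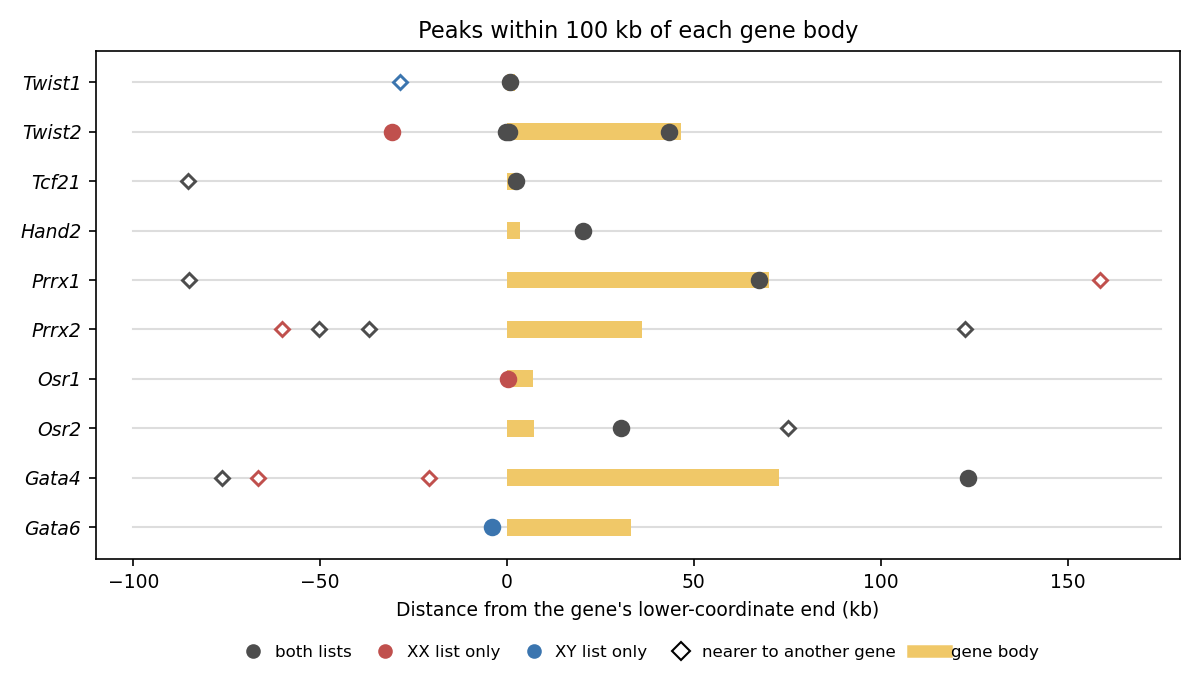
Peaks within 100 kb of each of the 10 gene bodies, by distance (kb) from the gene's end with the lower coordinate. Bars are gene bodies, circles are peaks given to the gene and open diamonds are peaks nearer to another gene, coloured by list. Prrx2 has open diamonds only, and the peaks of Hand2, Osr2, Gata4 and Gata6 lie outside the gene.

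Osr1 and Osr2 also differed. Osr1, an early factor of intermediate mesoderm and nephric mesenchyme (gene 23967, chromosome 12, 9574442 to 9581500), had 1 peak in the XX list and 0 in the XY list. The peak, at 9574631 to 9574930, lay inside the gene, 339 bp from its lower-coordinate end. It was the only place with a peak within 100 kb of the gene in either list, and its protein-coding neighbours Ttc32 and Nt5c1b are 538 and 788 kb away.

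Osr2, a related factor known for its part in palate development (gene 107587, chromosome 15, 35296098 to 35303305), had 1 shared peak and 0 peaks in its body. The XX peak at 35326485 to 35326784 and the XY peak at 35326563 to 35326862 lay 23.3 and 23.4 kb outside the gene, with 222 bp in common. The place is inside BC048602, a long noncoding RNA gene. The other peak within 100 kb, also shared, lay in the neighbouring gene Vps13b, 67.9 kb from Osr2.

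The GATA genes had peaks outside their bodies. Gata4, a factor of the heart and of the somatic cells of the genital ridge (gene 14463, chromosome 14, 63198914 to 63271712), had 1 shared peak, at 63322060 to 63322359 (XX) and 63322053 to 63322352 (XY). It lay 50.5 kb from the gene, the farthest of the peaks given to the 10 genes, and its XX and XY centres were 7 bp apart. It lies inside Gm4151, annotated as a miscellaneous RNA gene. On the other side, 1 shared and 1 XX-only peak in Ctsb and 1 XX-only peak in Fdft1 were also within 100 kb of Gata4.

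Gata6, a factor of endoderm, heart and smooth muscle (gene 14465, chromosome 18, 11052510 to 11085636), had 0 XX peaks and 1 XY peak. That peak, at 11048354 to 11048653, was 4.01 kb outside the gene at its lower-coordinate side, within the noncoding gene Gata6os. Whether a peak that is missing from 1 list, as at Osr1 and Gata6, was absent or under the authors' threshold cannot be told apart from these lists.

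Beyond 100 kb, Gata6 stood beside a run of shared peaks that had no protein-coding gene within that distance. On the side toward Rbbp8, whose gene is 548 kb away, 5 shared peaks lay 120, 133, 267, 307 and 333 kb from Gata6. They were among 335 shared peaks of the whole series that had no protein-coding gene within 100 kb. With the window widened to 500 kb, 3 of these 5 were given to Gata6, which then had 3 shared peaks, while its XY-only peak near the gene kept its place. These positions were singled out after they had been seen, and which gene a distant peak acts on cannot be read from its position.

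Osr1 and Tcf21, which also border wide gaps, had peaks of this kind in 1 list at a time. Osr1 had 1 XX-only peak 135 kb and 1 XY-only peak 353 kb away that had no protein-coding gene within 100 kb, and the 1 shared peak within 500 kb lay nearer to Ttc32. Tcf21 had 1 XY-only peak of this kind, 102 kb away. Within 500 kb of Hand2 there were 4 shared peaks, and 3 of them were given to other genes. Prrx2, with 0 peaks of its own, had 13 shared peaks within 500 kb, the most of the 10 genes, and Twist1 had 1 shared peak.

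**Figure D3:**
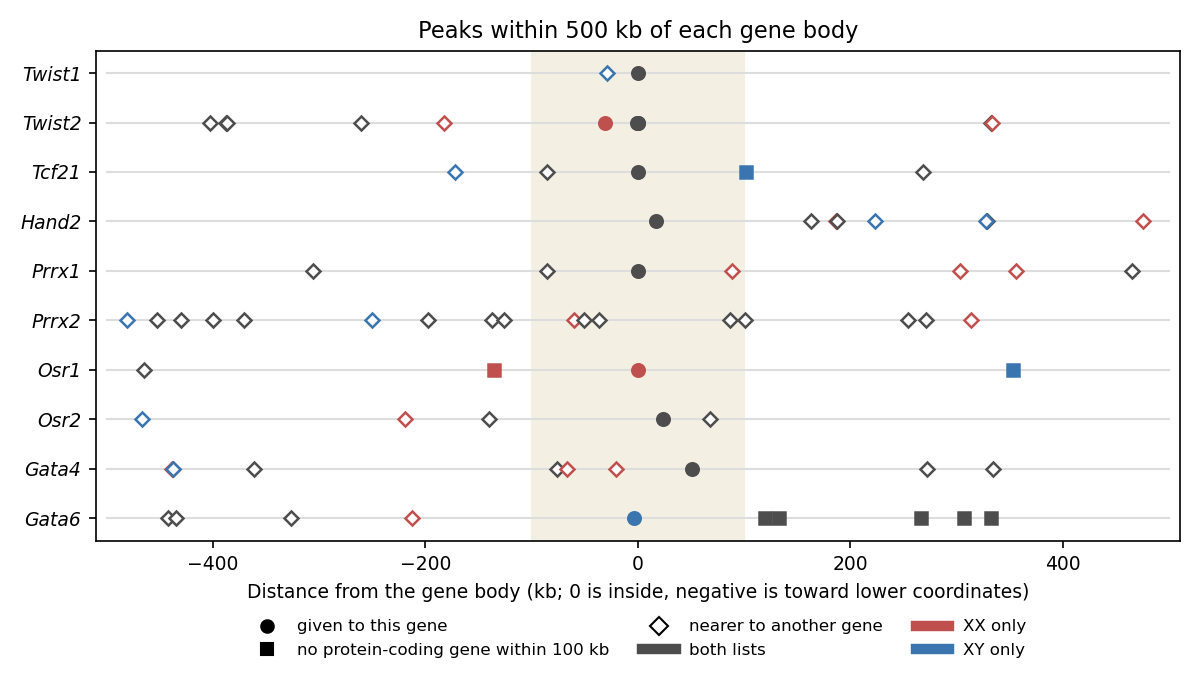
Peaks within 500 kb of each of the 10 gene bodies, by distance from the body (kb, 0 inside, negative toward lower coordinates). Filled circles are peaks given to the gene, squares are peaks with no protein-coding gene within 100 kb and open diamonds are peaks nearer to another gene, coloured by list, and the shaded band is 100 kb to either side. Gata6 has 5 dark squares between 120 and 333 kb.

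By place, 4 of the 9 shared peaks of the 10 genes lay within 1 kb of an end of the gene (44.4%, 95% exact interval 13.7 to 78.8). Of all shared peaks that had a gene, 64.1% did so. By gene, 3 of the 10 had such a peak (Twist1, Twist2 and Tcf21), against 20.3% of all protein-coding genes. A shared peak more than 1 kb from a gene end was found at 5 of the 10 (Twist2, Hand2, Prrx1, Osr2 and Gata4), against 9.87% of all genes. The 10 genes could take peaks from a median of 158 kb each, against 45.0 kb for all genes. Neither 20.3% nor 9.87% was recounted among genes with similar room, so the part played by this room was not tested. The intervals cover counting error only, and the difference from all genes was not tested.

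The 4 shared peaks near starts could be set along the direction of the gene. By XX centres, 3 of them (at Twist1, Twist2 and Tcf21) lay 500 bp or more after the start, and by XY centres 2 did (at Twist1 and Tcf21). Over the 4246 shared peaks within 1 kb of a protein-coding start, the median was 91 bp after the start, the quartiles were -102 and 225 bp, and 7.35% lay 500 bp or more after it. The limit of 500 bp was set after the positions had been seen, so this is a description.

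**Figure D4:**
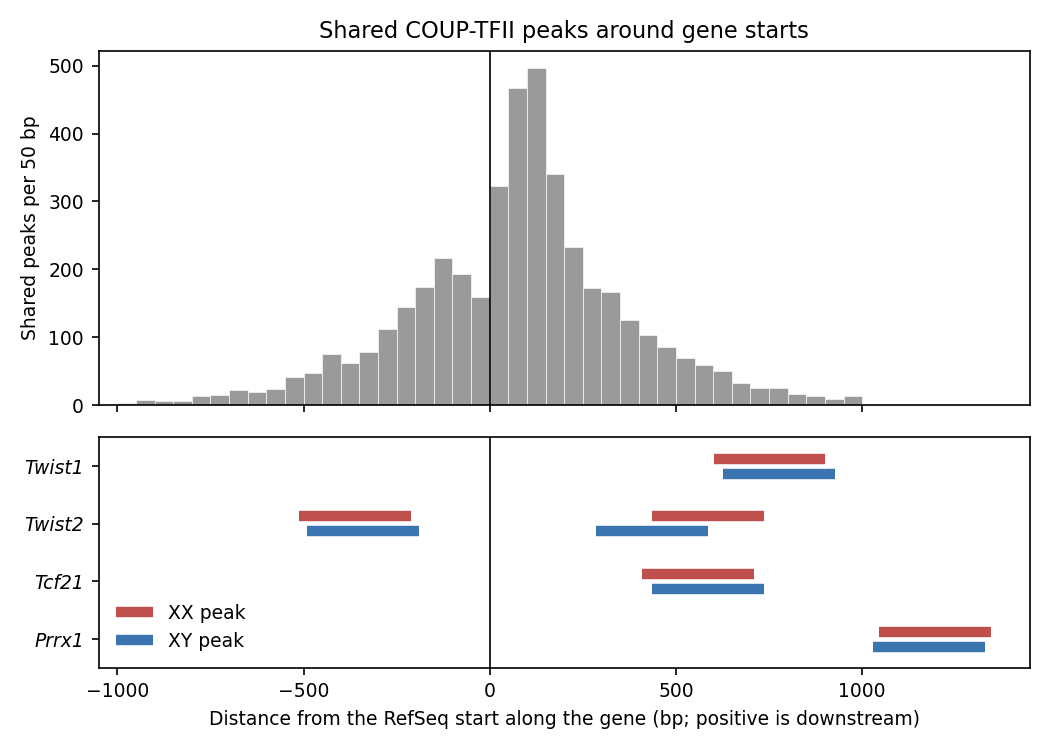
Top, number of shared peaks of all protein-coding genes in bins of 50 bp by the distance of the XX centre from the nearest RefSeq start (bp, positive downstream). Bottom, XX and XY peaks of Twist1, Twist2, Tcf21 and Prrx1 drawn at their width of 300 bp on the same axis. The top panel holds only the 4246 shared peaks within 1 kb of a start. The peaks of Twist1 and Tcf21 and the second of Twist2 lie to the right of most of these. The Prrx1 peak is centred more than 1 kb after the start, beyond the range of the top panel, so its place cannot be compared there.

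Outside protein-coding bodies, the 10 genes had 6 places with a peak, and 4 of these, at Hand2, Osr2, Gata4 and Gata6, were inside an annotated gene of another kind. The share was 66.7% (95% exact interval 22.3 to 95.7), against 21.2% of the 3878 such places of all genes. Over 1 kb outside the gene it was 4 of 5, against 25.1% of 2240 places. These noncoding genes were singled out after the positions had been seen. The interval covers counting error only and cannot serve as a test against 21.2%, and the difference was not tested. When peaks could be given to annotated genes of any kind, these 4 places went to the noncoding genes, and 4 of the 10 genes (Twist1, Twist2, Tcf21 and Prrx1) had a shared peak. The share over all genes was not recounted under that rule.

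By the definition of a shared peak, its XX and XY centres could lie at most 299 bp apart. At the 9 shared peaks the median gap between the XX and XY centres was 26 bp, from 3 bp at Hand2 to 151 bp at Twist2, against 33 bp over all 7483 shared peaks. Of the 11 XX peaks of the 10 genes, 9 were shared (81.8%, 95% exact interval 48.2 to 97.7), and of the 10 XY peaks, 9 were shared (90.0%, 55.5 to 99.7). The shares of the whole lists were 67.0% and 76.0%. The intervals treat the peaks as independent, although Twist2 alone had 4 of the XX and 3 of the XY peaks. They are too wide to show whether the 10 genes were like the whole lists, and this was not tested. XX-only peaks were found at 2 of the 10 genes, Twist2 and Osr1 (13.2% of all genes), and an XY-only peak at 1, Gata6 (9.55% of all genes).

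Genes related to the 10, or encoding their partners, were read in the same way. Of 41 related or cooperating factors, 11 had a shared peak (26.8%, against 28.2% of all protein-coding genes), 17 an XX peak and 15 an XY peak, and 20 had none. Among 11 bHLH relatives and partners, 4 had a shared peak. These were the E protein genes Tcf3 with 1, Tcf4 with 3 and Tcf12 with 1, whose products pair with Twist, Tcf21 and Hand factors, and Tcf23 with 1. Tcf4 and Tcf12 are long genes, with 544 and 366 kb of genome nearest to them against the median of 45.0 kb over all genes. The Tcf3 peak lay 103 bp from a gene end. Msc and Tcf24 had 1 XX-only peak each and Ferd3l 1 XY-only peak, while Hand1, the paralog of Hand2, had 0 peaks, as did Scx, Tcf15 and Ptf1a.

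Of 9 homeobox genes related to Prrx, 1 had a shared peak (11.1%, against 28.2% of all protein-coding genes). This was Alx1, with the peak 6.84 kb from the gene end and 1 XX-only peak besides. Alx4 and Shox2 had 0 peaks. In the GATA group of 7, Gata1, Gata2 and Gata3 had 0 peaks and Gata5 had 1 XY-only peak. A shared peak was found at 3 of the 7 (42.9%, against the same 28.2%). These were Zfpm1 and Zfpm2, which encode the Friend of GATA cofactors, and Trps1, an atypical GATA protein. Both groups are small, and their differences from all genes were not tested. Zfpm1 and Zfpm2 had 1 shared peak each, 108 and 247 bp from a gene end, and Trps1 had 2. The genome nearest to Zfpm2 and Trps1 is also long, at 650 and 436 kb.

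Of 14 other nephric or mesenchymal factors, 3 had a shared peak (21.4%, against 28.2% of all protein-coding genes). Pax8, a regulator of nephric development, had 2, and Foxd1, a stromal forkhead factor, and Snai1, a repressor in epithelial to mesenchymal transition, had 1 each. The nearest shared peak was 27.5 kb from a gene end at Pax8, 136 bp at Foxd1 and 77 bp at Snai1. The group had 8 XX-only and 2 XY-only peaks, where the whole lists have 3692 and 2363. By gene, 13.2% of all protein-coding genes had an XX-only peak and 9.55% an XY-only peak. In this group Foxd1 and Snai2 had 2 XX-only peaks each, Tbx18, Foxc1, Snai1 and Zeb2 had 1 each, and Zeb1 had both XY-only peaks. The genome nearest to Zeb1, Zeb2 and Tbx18 is 384, 262 and 228 kb, against the median of 45.0 kb over all genes. Pax2, with 217 kb, had 0 peaks. Wt1, Pax2 and Lhx1 had 0 peaks. These counts were not tested.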

How the data were processed

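The authors deposited 2 peak lists, 1 per sex, as chromosome, start and end in mm10. The submitters' processing notes give no roles for the tools they name, which are HOMER 4.10.3, Bowtie 1.2, bedtools 2.24.0, cutadapt and Picard. The peak threshold is not given in the sources used here, nor is how replicates were joined. Input and signal tracks were not used here. A threshold and depth that differ between the lists would change which peaks appear in 1 list only.

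Positions are counted from 1. Gene positions came from the RefSeq table of GRCm38.p6, with 49943 genes on the chromosomes used. A peak's gene was the protein-coding gene whose body was nearest to its centre, up to 100 kb away (inside counts as 0, and ties go to the nearer gene end). This gave a gene to 93.5% of XX and 95.3% of XY peaks. Shared peaks carry XX coordinates. Starts and strands came from the promoter table, which matched 6 of the 10 genes. Stretches nearest to a gene were measured on a grid of 500 bp. Shares have exact (Clopper-Pearson) 95% intervals from scipy 1.17.1. The shared count was checked against bedtools 2.31.1. The members and lists were chosen with earlier results of these data known. Named besides the 10 genes are their protein-coding neighbours, genes that took a peak within 100 kb of a member, the listed relatives (some of which are not reported here), and the 2 genes most like Twist2. Alternatives changed the window, the assignment or the definition of a shared peak.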

Additional observations from a re-analysis of the deposited data

How the results depend on the processing

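The 9 shared peaks, 11 XX peaks and 10 XY peaks of the 10 genes, and the 7 genes with a shared peak, were recounted under 5 other assignments, and the counts of shared and list-only peaks also under 3 other definitions of a shared peak. Assignment by the nearest gene end changed no count. With every peak within 100 kb of a gene counted, whichever gene was nearest, there were 22 XX peaks, 18 XY peaks, 16 shared, 6 XX-only and 2 XY-only peaks. In that count 8 genes had a shared peak. Within 10 kb, 7 XX, 7 XY, 6 shared, 1 XX-only and 1 XY-only peaks were left, and 4 genes had a shared peak. With genes of any kind, 8 XX, 6 XY, 6 shared, 2 XX-only and 0 XY-only peaks were left. A shared peak was then found at 4 genes. Within 500 kb there were 15 XX, 15 XY, 12 shared, 3 XX-only and 3 XY-only peaks, and 8 genes had a shared peak. There were 8 shared, 3 XX-only and 2 XY-only peaks with 50% of each peak in common, and the same with centres within 100 bp. Both definitions left 7 genes with a shared peak. Counting peaks within 1 kb of each other as shared changed none of the main counts. The shares over all protein-coding genes were not recounted under these settings. The 28.2% of all genes with a shared peak belongs to the main setting, so the other counts have no share to stand beside. Of 240 recounts for single genes, 213 gave the main value. Many of these counts were 0 in the main setting, and those of Prrx2 could not change with the definition of a shared peak. No stricter peak threshold could be tried, since the lists carry no score. No replicate could be left out and no paired analysis was possible because each list combines both replicates of a sex. Read depth is unknown.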
